A study of Homo sapiens with 36 samples.

Results

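The genes described here encode the B-cell receptor signalling subunits and the proteins that act closest to them: CD79A, CD79B, LYN, SYK, BTK, BLNK, PLCG2, PIK3CD and CD22. They were found as array units (groups of probes for 1 transcript cluster) whose only gene symbol in the platform annotation was one of these 9 names, and where a gene had several such units the brightest by its mean over all arrays was used. Of the 9 genes, 8 had such a unit, 10 units in all, out of 33616 genes with a unit of a single symbol and 135750 units on the array. The unit that lists CD22 lists further symbols too, so CD22, an inhibitory receptor of B cells, is not analysed here. All 8 measured genes passed the filter on low values in each experiment, which kept the brighter part of the array (units with a mean no lower than the median unit).

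The cells were MEC-1, an established line of malignant B cells that came from chronic lymphocytic leukaemia. Each experiment used locked nucleic acid gapmers, taken up without a transfection reagent (gymnosis), which are short DNA-centred oligonucleotides that pair with an RNA and have it cut by RNase H, against 1 long non-coding RNA: CYTOR (named LINC00152 in other labels of the same arrays), LINC00158 or RP11-161H23.5. In each experiment the groups were gapmer 1, gapmer 2, gapmers 1+2 together, and a scrambled gapmer, with 1 µM of each gapmer for 4 days and 3 arrays per group, 36 arrays in all. The 3 treated groups of an experiment share its scrambled arrays, no untreated cells were analysed here, and the labels do not say whether replicates came from separate cultures, so the p-values measure the spread between these arrays, which may be technical. All results come from 1 cell line.

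The B-cell receptor is a membrane immunoglobulin paired with the CD79A-CD79B heterodimer, whose cytoplasmic tails carry the tyrosine motifs that start the signal. LYN, a SRC-family kinase, phosphorylates those motifs, SYK docks on them, and the adaptor BLNK then brings BTK and PLCG2 together, so that PLCG2 makes the messengers that release calcium and activate protein kinase C. PIK3CD is the catalytic p110δ subunit of phosphoinositide 3-kinase, which makes the lipid that recruits BTK. In chronic lymphocytic leukaemia this pathway sustains the malignant cells, and BTK and p110δ are drug targets.

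The regions before the start sites of CD79A and BTK are shown because of their changes. CD79A was among the genes that fell in the LINC00158 experiment. BTK was the only measured member that rose in any treatment when each experiment was tested on its own. The sequences are from RefSeq on GRCh38.p14, 250 bases before the start, 5′ to 3′ on the gene's strand, and 7 of the 9 genes, with 12 start sites, were in the table used. CD79A lies on chromosome 19 (chr19:41877029-41877278, plus strand) and BTK on chromosome X (chrX:101390797-101391046, minus strand). Capitals mark matches to the PU.1 motif GAGGAAGT and the SP1 motif GGGCGG, on either strand.
CD79A: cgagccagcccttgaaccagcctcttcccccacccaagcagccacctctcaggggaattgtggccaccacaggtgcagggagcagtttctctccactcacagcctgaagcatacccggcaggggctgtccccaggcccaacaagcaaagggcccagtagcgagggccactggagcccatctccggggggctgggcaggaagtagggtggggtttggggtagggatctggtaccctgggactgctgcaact
BTK: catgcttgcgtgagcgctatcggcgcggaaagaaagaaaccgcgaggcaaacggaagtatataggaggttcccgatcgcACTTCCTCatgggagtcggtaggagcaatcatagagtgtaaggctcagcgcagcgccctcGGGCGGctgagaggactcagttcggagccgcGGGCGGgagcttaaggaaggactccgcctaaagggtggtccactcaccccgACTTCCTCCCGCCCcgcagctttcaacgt

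The BTK sequence holds the PU.1 motif at positions -171 to -164 and -29 to -22 from the start, both on the opposite strand, and the SP1 motif 3 times. The PU.1 motif was present at 2 of the members' 12 starts (BTK and 1 start of SYK), against 2.17% of 35116 promoters of the same length. The SP1 motif was present at 6 of the 12, against 42.6% of all. The EBF palindrome (TCCC and GGGA around any 2 bases, 1.06% of all), the octamer ATGCAAAT (1.63%), the ETS motif CCGGAAGT (3.42%, sharing the letters GGAAGT with the PU.1 motif) and TATAAA (10.7%) were at none of the 12. These are matches of letters within these windows only.

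The arrays fell into 4 sets of 9 by exactly shared values in 1927 bright units: array pairs within a set had at least 6.07% of these values identical and pairs from different sets at most 1.19%. The 9 scrambled arrays made up 1 set, and each experiment's 9 treated arrays made up another, so that in any treated group against its scrambled group an effect of the set and one of the gapmer cannot be told apart. Quantile normalization, which gives all arrays the same distribution, was therefore run beside the deposited values.

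The targeted transcripts check the labels. The LINC00158 unit fell, with values of 5.73, 5.22 and 5.77 under gapmer 1, 6.41, 5.59 and 6.04 under gapmer 2, and 5.85, 4.82 and 5.28 under both, against 8.80, 7.50 and 7.51 in its scrambled group (adjusted p at most 0.0107 by limma). The CYTOR unit went against its label, at 7.45, 6.79 and 6.55 under gapmer 1, 6.75, 6.28 and 6.64 under gapmer 2, and 6.07, 6.49 and 6.24 under both, against 5.25, 5.27 and 5.51 in the scrambled group (adjusted p 0.00385, 0.0104 and 0.036). The arrays of that experiment are therefore called the arrays labelled CYTOR. The RP11-161H23.5 transcript is not analysed here. The LINC00158 unit was also lower in all 3 RP11-161H23.5 groups, by -1.15, -1.34 and -1.44 (adjusted p 0.0252, 0.014 and 0.00794). The CYTOR unit was lower under LINC00158 gapmer 2 (-1.37, adjusted p 0.0152) and both (-1.70, 0.00799) and under RP11-161H23.5 gapmer 2 (-0.99, 0.0435).

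Markers of B cells were present. All 9 measured genes of a B-cell list (MS4A1, PAX5 and others) lay above the median unit, whose mean level was 3.94. Of the lists of other lineages, 5 of 10 T and NK cell genes, 3 of 9 myeloid, 4 of 8 erythroid and platelet, and 6 of 8 stromal and epithelial genes lay at or above it. CD3D (3.32), CD14 (3.55), HBB (3.37) and EPCAM (3.84) were below, while CD3E (6.75), NKG7 (5.81), CSF1R (4.67), COL1A1 (8.19) and KRT8 (6.10) were above. The mean log2 signal of the B-cell list per array was 9.33 to 11.00 in LINC00158 gapmer arrays against 10.98 to 11.13 in their scrambled arrays, and 8.85 to 10.04 in RP11-161H23.5 gapmer arrays against 9.93 to 10.47 in theirs. In the arrays labelled CYTOR it was 10.16 to 11.26 against 10.29 to 10.77. T and NK cell genes averaged 4.07 to 4.34 in LINC00158 gapmer arrays against 4.40 to 4.62 in scrambled arrays, myeloid genes 3.65 to 3.92 against 3.74 to 4.11, and erythroid and platelet genes 3.70 to 3.96 against a lowest scrambled value of 3.97. In the RP11-161H23.5 and CYTOR experiments the ranges of these 3 lists overlapped between gapmer and scrambled arrays. Stromal and epithelial genes averaged 5.23 to 5.67 in LINC00158 gapmer arrays against 5.18 to 5.35, 5.25 to 5.43 in RP11-161H23.5 gapmer arrays against 4.97 to 5.20, and 4.79 to 5.18 in the CYTOR gapmer arrays against 5.20 to 5.35. The stromal and epithelial ranges of the RP11-161H23.5 and CYTOR experiments did not overlap. The B-cell list reached lower levels in LINC00158 and RP11-161H23.5 gapmer arrays than in their scrambled arrays, and the part of it and of the other lists in the results was not tested. From RNA of whole cultures, fewer cells of a kind and less RNA per cell cannot be told apart.

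One array stood apart from its group. LINC00158 gapmer 1 replicate 1 differed from its scrambled arrays by a mean of 0.470 log2 units and from the other gapmer 1 arrays by 0.511. Results for that group are given with and without it.

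**Figure D1:**
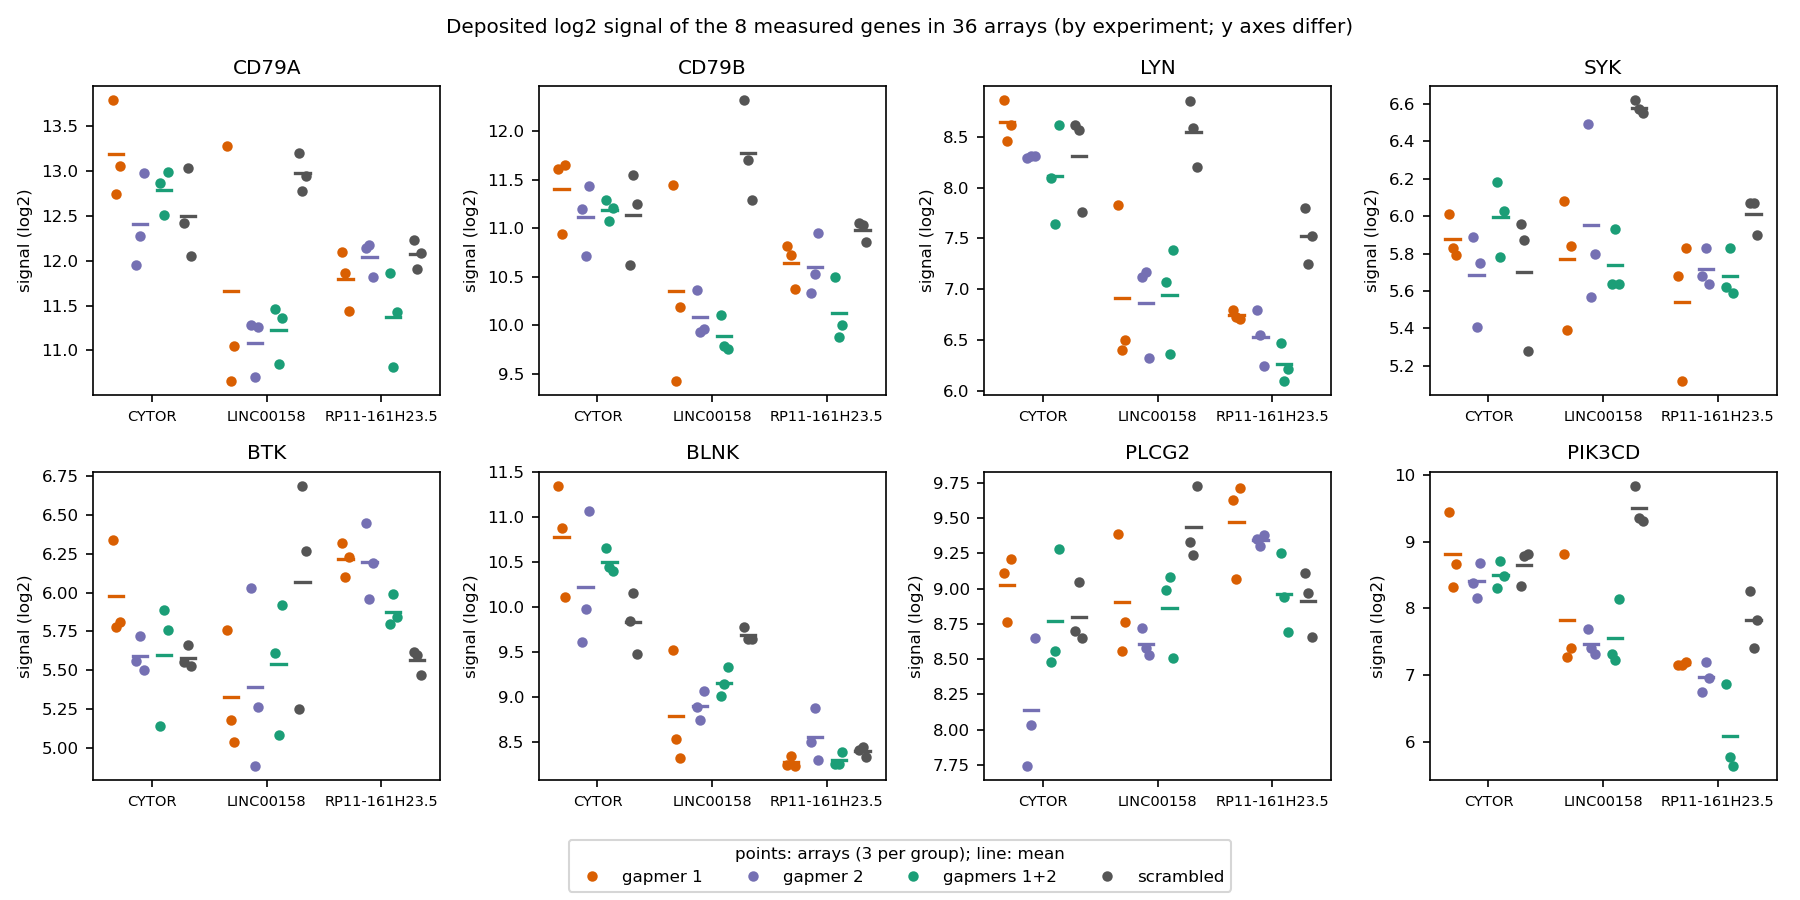
Log2 signal of the 8 measured B-cell receptor genes (vertical axes) in each of the 36 arrays, by experiment and group; points are arrays and bars are group means. PIK3CD, LYN, CD79A and CD79B were lower in the LINC00158 gapmer groups than in their scrambled group, with gapmer 1 replicate 1 as the highest of the treated arrays in all 4.

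In the LINC00158 experiment all 8 genes had lower means under every treatment than under the scrambled gapmer, for BLNK in only 1 of its 2 units. PIK3CD and LYN fell under all 3 treatments, to between 0.244 and 0.328 of the scrambled level, and CD79A and CD79B fell under gapmer 2 and gapmers 1+2. SYK fell under gapmers 1+2 only and PLCG2 under gapmer 2 only, while BTK and BLNK did not pass the test under any treatment. Called means a Benjamini-Hochberg adjusted p under 0.05 by limma over all units tested. By that rule 2 of 8 genes were lower under gapmer 1, where 6.28% of all units tested were called lower, 5 of 8 under gapmer 2 (10.5% of all units), and 5 of 8 under gapmers 1+2 (8.82% of all units). These shares differed by level. Of units with a mean of 4 to 6, 4.54%, 6.52% and 6.33% were called lower, and of those of 6 to 8, 6.93%, 14% and 11.2%. At 8 to 10 the shares were 12.6%, 25.8% and 19.4%, and at 10 to 12 they were 18.7%, 34.3% and 23.9%. The median change of the 8 genes was -1.11 under gapmer 1, -1.25 under gapmer 2 and -1.23 under both, against medians over all units of -0.11, -0.10 and -0.11.

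Of the receptor's signalling subunits, CD79A had log2 signals of 13.28, 10.66 and 11.05 under gapmer 1, 11.28, 10.70 and 11.26 under gapmer 2, and 11.46, 10.85 and 11.36 under both, against 13.20, 12.78 and 12.94 in scrambled arrays. Gapmer 1 replicate 1 alone overlapped the scrambled arrays, and the other 8 treated arrays lay below all of them. CD79A changed by -1.31, -1.89 and -1.75 (SE 0.54), with adjusted p of 0.129, 0.0347 and 0.0492. Its partner CD79B had 11.45, 9.43 and 10.19 under gapmer 1, 10.37, 9.93 and 9.96 under gapmer 2, and 10.11, 9.79 and 9.76 under both, against 12.32, 11.70 and 11.29 in scrambled arrays. Again gapmer 1 replicate 1 alone reached into the scrambled range. The changes of CD79B were -1.41, -1.68 and -1.88 (SE 0.43), with adjusted p of 0.0578, 0.0249 and 0.019.

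Among the kinases, LYN had 7.83, 6.40 and 6.50 under gapmer 1, 7.12, 7.17 and 6.32 under gapmer 2, and 7.07, 6.36 and 7.39 under both, against 8.85, 8.59 and 8.20 in scrambled arrays. All 9 treated arrays lay below all 3 scrambled arrays. LYN fell, with log2 changes of -1.64, -1.68 and -1.61 (SE 0.41, adjusted p 0.0313, 0.0211 and 0.0271), to 0.322, 0.313 and 0.328 of the scrambled level. SYK, the kinase that docks on the phosphorylated subunits, had 6.08, 5.39 and 5.84 under gapmer 1, 6.49, 5.57 and 5.80 under gapmer 2, and 5.64, 5.93 and 5.64 under both, against 6.62, 6.57 and 6.55 in scrambled arrays. The groups did not overlap, and the smallest gap was at gapmer 2 replicate 1. SYK changed by -0.81, -0.63 and -0.84, with adjusted p of 0.0633, 0.108 and 0.0473. BTK had 5.76, 5.18 and 5.04 under gapmer 1, 6.03, 4.88 and 5.26 under gapmer 2, and 5.61, 5.08 and 5.92 under both, against 5.25, 6.69 and 6.27 in scrambled arrays. The scrambled arrays of BTK spanned most of the treated range (SD 0.74, n = 3), and its changes of -0.74, -0.68 and -0.53 had adjusted p of 0.24, 0.257 and 0.382.

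Downstream of the kinases, PIK3CD had 8.81, 7.27 and 7.41 under gapmer 1, 7.69, 7.40 and 7.31 under gapmer 2, and 7.32, 7.22 and 8.14 under both, against 9.84, 9.35 and 9.31 in scrambled arrays. All treated arrays lay below all scrambled arrays. PIK3CD fell, with changes of -1.67, -2.03 and -1.94 (SE 0.39, adjusted p 0.0245, 0.00902 and 0.0117), the lowest adjusted p of the 8 genes under each treatment. PLCG2, the phospholipase, had 9.39, 8.56 and 8.76 under gapmer 1, 8.72, 8.58 and 8.53 under gapmer 2, and 8.99, 9.08 and 8.51 under both, against 9.33, 9.24 and 9.73 in scrambled arrays. Its change of -0.82 under gapmer 2 passed the test (adjusted p 0.044), and those of -0.53 under gapmer 1 and -0.57 under both did not (0.179 and 0.135). The adaptor BLNK changed by -0.90, -0.79 and -0.53 (adjusted p 0.0575, 0.0686 and 0.202). Its treated arrays of 8.32 to 9.52 lay below the scrambled arrays of 9.64 to 9.78.

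Counted over the genes, every treated array lay below every scrambled array for 4 of 8 genes under gapmer 1, 7 of 8 under gapmer 2 and 7 of 8 under both, against 16.6%, 25.4% and 25.1% of all units tested. BTK was the exception under gapmer 2 and under both.

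Without gapmer 1 replicate 1, 7 of 8 genes were called lower under gapmer 1, all except BTK (-0.96, adjusted p 0.138). The changes were then -2.12 for CD79A (adjusted p 0.000812), -1.96 for CD79B (0.00266), -2.10 for LYN (0.00273) and -2.16 for PIK3CD (0.00112). BLNK changed by -1.27 (0.00146) and PLCG2 by -0.77 (0.0318), and the adjusted p of SYK was 0.0258. In that fit 17.2% of all units were lower. After quantile normalization without that array 3 of 8 were called, CD79A (-1.09, adjusted p 0.0184), LYN (-1.62, 0.00994) and PIK3CD (-1.51, 0.00477), where 8.28% of all units were lower. CD79B (0.0546), BLNK (0.0682), SYK (0.106), BTK (0.217) and PLCG2 (0.916) then did not pass. With that array out of the fit of deposited values, 6 genes were called lower under gapmer 2 and 6 under gapmers 1+2, where 16.0% and 14.6% of all units were lower.

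After quantile normalization LYN and PIK3CD fell in all 3 LINC00158 treatments. LYN changed by -1.34, -1.29 and -1.24 (adjusted p 0.0352, 0.0309 and 0.0374) and PIK3CD by -1.25, -1.52 and -1.47 (0.0246, 0.00888 and 0.0109). CD79B was called under gapmers 1+2 only (-1.22, adjusted p 0.0315), and CD79A no longer passed (-0.59, -1.09 and -1.06, adjusted p 0.323, 0.0712 and 0.0805). PLCG2 changed by -0.07, -0.28 and -0.07 on that scale and SYK by -0.66, -0.45 and -0.67, none of them called. The counts were 2, 2 and 3 of 8, where 3.61%, 6.23% and 5.20% of all units were called lower.

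Bright units as a whole were lower in these treated arrays. Units with a mean between 8 and 10 had median changes of -0.56, -0.64 and -0.57, and those between 10 and 12 had -0.73, -0.84 and -0.69. Against these, the changes of CD79A, CD79B, LYN and PIK3CD were below the lower quartile of units at their own level under all 3 treatments, while those of PLCG2 and BLNK were within the quartiles. BTK was also below the lower quartile under all 3 treatments, and SYK, against units of 6 to 8, under gapmer 1 and both but not under gapmer 2.

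**Figure D2:**
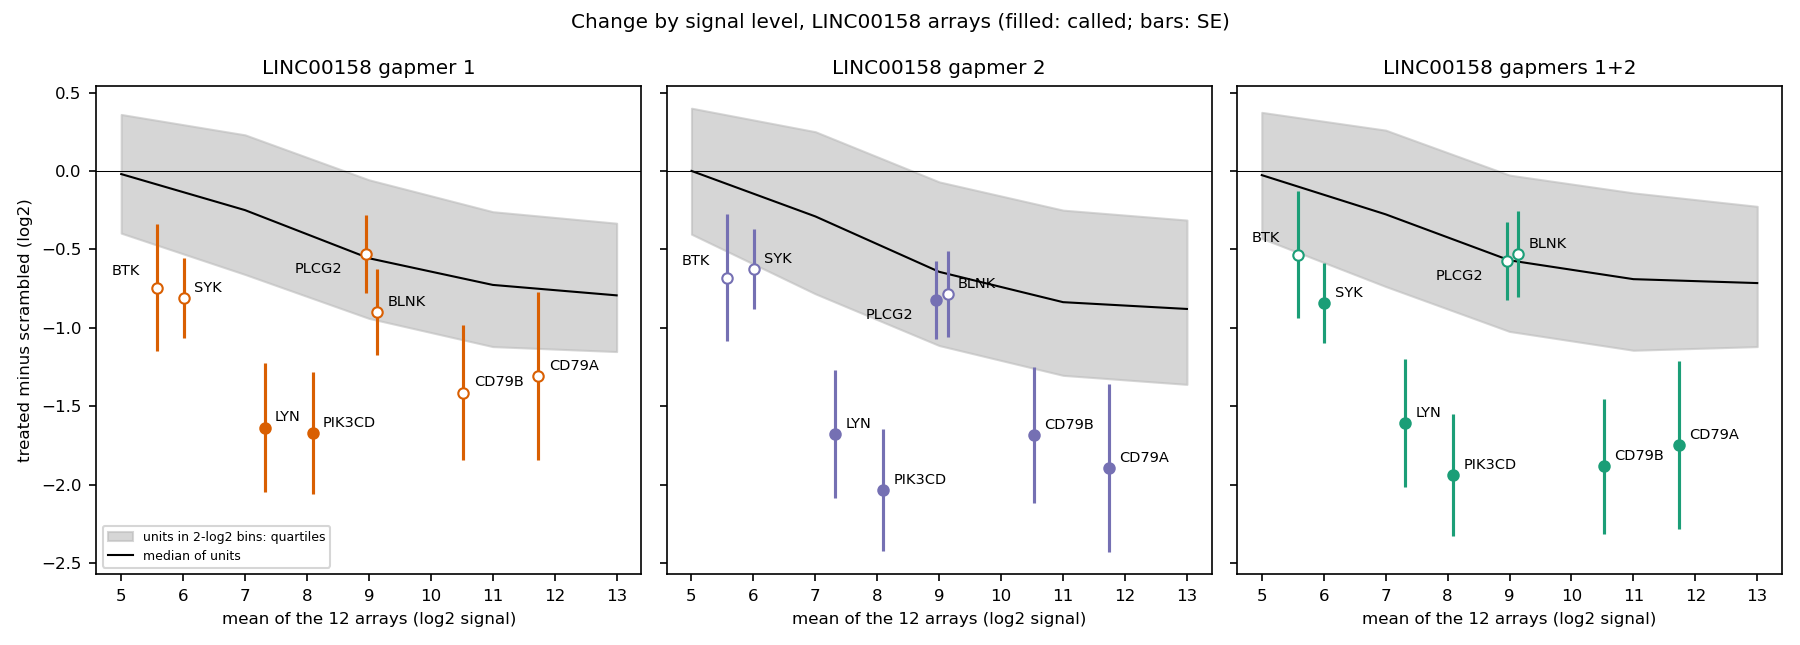
Change of each gene in the LINC00158 treatments (vertical axis, log2, gapmer minus scrambled) against its mean level (horizontal axis, log2 signal), with the median and quartiles of all tested units by level. CD79A, CD79B, LYN, PIK3CD and BTK lie below the lower quartile of units of like brightness under all 3 treatments, and SYK under gapmer 1 and both.

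Calls held to different degrees when each array was left out in turn. PIK3CD under gapmer 2 and under gapmers 1+2 kept its call in every case, with adjusted p of 0.0238 to 0.0378 and 0.0174 to 0.0495. The calls of CD79A (gapmer 2 and both), PLCG2 (gapmer 2) and SYK (both) were lost with any 1 of their 6 arrays left out, with adjusted p up to 0.104, 0.147, 0.129 and 0.124. The gapmer 1 calls of LYN and PIK3CD were lost without any of the scrambled arrays or without gapmer 1 replicate 2 or 3 (adjusted p up to 0.109 and 0.0897). LYN lost its call under gapmer 2 without scrambled replicate 1 or 2 or gapmer 2 replicate 3 (up to 0.0726), and under both without scrambled replicate 1 or 2 or gapmers 1+2 replicate 1 or 2 (up to 0.1). CD79B lost it under gapmer 2 without scrambled replicate 1 or 2 or gapmer 2 replicate 2 or 3 (up to 0.0886), and under both without scrambled replicate 1 or 2 or gapmers 1+2 replicate 2 (up to 0.0698).

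In the RP11-161H23.5 experiment the genes moved in both directions. LYN fell under all 3 treatments, to 0.584, 0.504 and 0.418 of the scrambled level, and PIK3CD and CD79B fell under gapmers 1+2. BTK rose 1.57-fold under gapmer 1 and 1.55-fold under gapmer 2. CD79A, SYK, BLNK and PLCG2 passed the test under no treatment. Thus 1 of 8 was called higher and 1 lower under gapmer 1 (6.19% and 7.10% of all units), 1 higher and 1 lower under gapmer 2 (5.20% and 7.03%), and 0 higher and 3 lower under both (6.98% and 9.30%); at an unadjusted p under 0.05 in limma the counts in either direction were 4, 3 and 4 of 8, where 29.6%, 28.8% and 32.2% of all units had such a p. The median change of the 8 was -0.31, -0.17 and -0.52, against -0.03, -0.04 and -0.05 for all units. Of units with a mean of 6 to 8, 6.49%, 5.21% and 9.41% were called lower. At 8 to 10 these shares were 8%, 6.97% and 15.8%, and at 10 to 12 they were 11.3%, 11.9% and 23.9%.

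LYN had log2 signals of 6.80, 6.73 and 6.71 under gapmer 1, 6.80, 6.55 and 6.25 under gapmer 2, and 6.47, 6.10 and 6.22 under both, against 7.80, 7.25 and 7.52 in scrambled arrays. All treated arrays lay below all scrambled arrays, with the lowest values under both gapmers. LYN fell, with changes of -0.78, -0.99 and -1.26 (SE 0.20, adjusted p 0.0261, 0.00982 and 0.00256), and after quantile normalization of -0.73, -0.97 and -1.22 (0.0258, 0.00833 and 0.00234). With each array left out in turn its calls under gapmer 2 and under both held (adjusted p up to 0.0388 and 0.0118). The gapmer 1 call was lost without scrambled replicate 1 or 3 or without any gapmer 1 array (up to 0.088).

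BTK had 6.32, 6.10 and 6.23 under gapmer 1, 6.45, 5.96 and 6.19 under gapmer 2, and 5.80, 5.99 and 5.84 under both, against 5.62, 5.60 and 5.47 in scrambled arrays. The treated arrays all lay above the scrambled ones, and those with both gapmers had the lowest mean of the 3 treated groups. BTK changed by 0.65, 0.64 and 0.31 (SE 0.16, adjusted p 0.0255, 0.0294 and 0.213), and after quantile normalization by 0.71, 0.68 and 0.37 (0.0181, 0.0229 and 0.146). The gapmer 1 call was lost without any scrambled array or without gapmer 1 replicate 1 or 3 (up to 0.0767), and the gapmer 2 call without any scrambled array or without gapmer 2 replicate 1 or 3 (up to 0.0983). Neither rise was called with all 36 arrays in 1 fit or with all 9 scrambled arrays as control.

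PIK3CD had 7.15, 7.15 and 7.20 under gapmer 1, 6.75, 7.20 and 6.96 under gapmer 2, and 6.87, 5.77 and 5.63 under both, against 8.26, 7.41 and 7.82 in scrambled arrays. All treated arrays lay below the scrambled arrays, and replicates 2 and 3 of gapmers 1+2 were the lowest 2 PIK3CD values of all 36 arrays. Its changes were -0.66, -0.86 and -1.74 (SE 0.31), with adjusted p of 0.182, 0.0952 and 0.00488. The call under both gapmers held in every leave-one-out (0.00116 to 0.0213) and after quantile normalization (-1.70, adjusted p 0.00477).

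CD79B had 10.82, 10.73 and 10.38 under gapmer 1, 10.33, 10.53 and 10.95 under gapmer 2, and 10.50, 9.88 and 10.00 under both, against 11.05, 11.03 and 10.86 in scrambled arrays. Only gapmer 2 replicate 3 reached the scrambled range. CD79B fell under both gapmers by 0.85 (SE 0.22, adjusted p 0.0236), a call lost after quantile normalization (-0.52, adjusted p 0.0939) and without scrambled replicate 1 or 2 or gapmers 1+2 replicate 2 or 3 (up to 0.0806). CD79A changed by -0.28, -0.03 and -0.71 (adjusted p 0.522, 0.953 and 0.0879). SYK changed by -0.47, -0.30 and -0.33 (0.13, 0.342 and 0.259) with all treated arrays below all scrambled arrays, at 5.12 to 5.83 against 5.90 to 6.07. PLCG2 changed by 0.56, 0.43 and 0.05 (0.11, 0.213 and 0.909), and BLNK by -0.12, 0.16 and -0.09.

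After quantile normalization 1 gene was called higher and 1 lower under gapmer 1 (7.51% and 5.75% of all units), 1 higher and 1 lower under gapmer 2 (6.49% and 5.34%), and 2 lower under both (7.43%).

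Over the 8 genes, every treated array lay below every scrambled array for 4, 3 and 5 genes, against 18.3%, 18.8% and 18.9% of all units. Every treated array lay above for 1, 2 and 1 genes, against 15.9%, 15.1% and 14.9%.

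**Figure D3:**
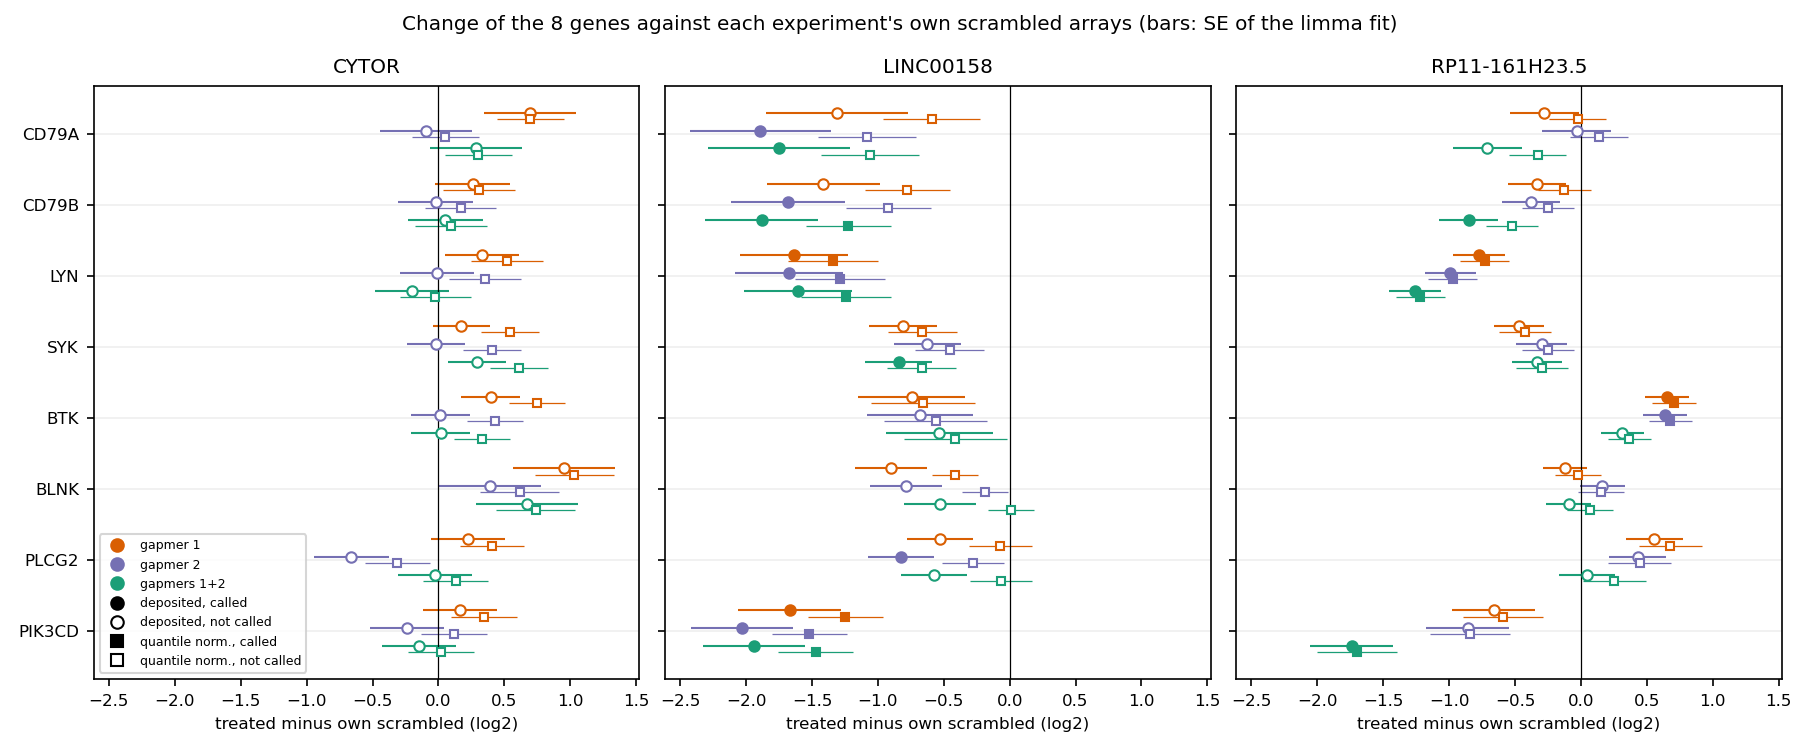
Log2 change of each gene (horizontal axes, treated minus the experiment's own scrambled group) for the 3 treatments; circles are deposited values, squares quantile-normalized values, filled symbols passed the test and bars are the SE of the limma fit. LYN and PIK3CD lie below 0 in the LINC00158 and RP11-161H23.5 experiments on both scales, and BTK lies above 0 in the RP11-161H23.5 experiment.

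In the arrays labelled CYTOR none of the 8 genes passed the test under any treatment. The counts of 0 of 8 by limma stood against 13.1%, 14.2% and 10.5% of all units called in either direction under gapmer 1, gapmer 2 and both, and 1, 1 and 0 genes had an unadjusted p under 0.05, as had 29.9%, 30.6% and 27.3% of all units. After quantile normalization the counts were also 0, where 3.05%, 3.43% and 2.20% of all units were higher and 2.96%, 3.34% and 2.08% lower, and the lowest adjusted p of the genes were 0.0593, 0.226 and 0.129. Under gapmer 1 all 8 means were above the scrambled means, by 0.16 to 0.95 with a median of 0.30, while the median over all units was -0.23. That median of units depended on level. It was -0.28 at a mean of 4 to 6, -0.23 at 6 to 8, -0.08 at 8 to 10, 0.05 at 10 to 12 and 0.075 at 12 to 14. Under gapmer 2, 2 means were above and 6 below (-0.66 to 0.39), and under both 5 were above and 3 below (-0.20 to 0.67).

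PIK3CD, which fell in both other experiments, had 9.44, 8.32 and 8.67 under CYTOR gapmer 1, 8.38, 8.16 and 8.68 under gapmer 2, and 8.30, 8.71 and 8.48 under both, against 8.33, 8.79 and 8.82 in scrambled arrays. The groups overlapped. LYN had 8.86, 8.46 and 8.61 under gapmer 1, 8.29, 8.31 and 8.31 under gapmer 2, and 8.09, 7.64 and 8.61 under both, against 8.61, 8.57 and 7.76. These groups overlapped too, and the changes of LYN were 0.33 (95% interval -0.28 to 0.94), -0.01 (-0.62 to 0.60) and -0.20. CD79A changed by 0.69 (-0.08 to 1.46), -0.10 and 0.29, and CD79B by 0.26, -0.02 and 0.05. BLNK changed by 0.95, 0.39 and 0.67 (adjusted p 0.127, 0.535 and 0.292), and PLCG2 under gapmer 2 by -0.66 (adjusted p 0.139). BTK changed by 0.40, 0.01 and 0.02, and SYK by 0.17, -0.02 and 0.29.

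The mean effect of the 3 treatments was compared between experiments by an interaction test over all 36 arrays, since a call in one experiment and none in another does not show a difference. Between the LINC00158 and the CYTOR experiments 6 of 8 genes differed, all lower in the LINC00158 experiment, where 8.70% of all units were called lower. PIK3CD changed on average by -1.88 in the LINC00158 experiment and -0.08 in the CYTOR experiment, a difference of -1.81 (adjusted p 0.00146). For LYN the mean changes were -1.64 and 0.04 (difference -1.68, adjusted p 0.00137), for CD79A -1.65 and 0.29 (-1.95, 0.00441) and for CD79B -1.66 and 0.10 (-1.76, 0.00154). SYK differed by -0.91 (0.00915) and BLNK, in the unit used, by -1.41 (0.00348), while BTK (-0.79, 0.0822) and PLCG2 (-0.49, 0.224) did not pass. The calls of CD79A, CD79B, LYN, BLNK and PIK3CD held with any 1 of the 24 arrays left out, and that of SYK was lost without CYTOR scrambled replicate 3 (0.0548). After quantile normalization 7 of 8 genes were called, BTK among them (-1.03, adjusted p 0.0216), where 10.5% of all units were called lower.

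Between the RP11-161H23.5 and the CYTOR experiments only LYN was called, with mean changes of -1.01 and 0.04 (difference -1.05, adjusted p 0.0457), where 4.64% of all units were lower. That call held in 7 of 24 leave-one-out fits (0.0311 to 0.18). After quantile normalization LYN (-1.29, 0.00593), PIK3CD (-1.25, 0.0102) and SYK (0.0236) were called lower, where 8.19% of all units were. Between the RP11-161H23.5 and the LINC00158 experiments BTK, with mean changes of 0.53 and -0.65, differed by 1.19 (adjusted p 0.026), and PLCG2, with 0.34 and -0.64, by 0.99 (0.0311), where 5.14% of all units were called higher. The scrambled means of these experiments also differed, at 5.56 and 6.07 for BTK and 8.91 and 9.43 for PLCG2. The BTK call was lost without replicate 2 or 3 of either scrambled group (up to 0.121). The PLCG2 call was lost without LINC00158 scrambled replicate 1 or 3 or RP11-161H23.5 scrambled replicate 2 or 3 (up to 0.105), and after quantile normalization (0.62, adjusted p 0.163), which left 1 of 8 genes called where 3.83% of all units were higher.

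**Figure D4:**
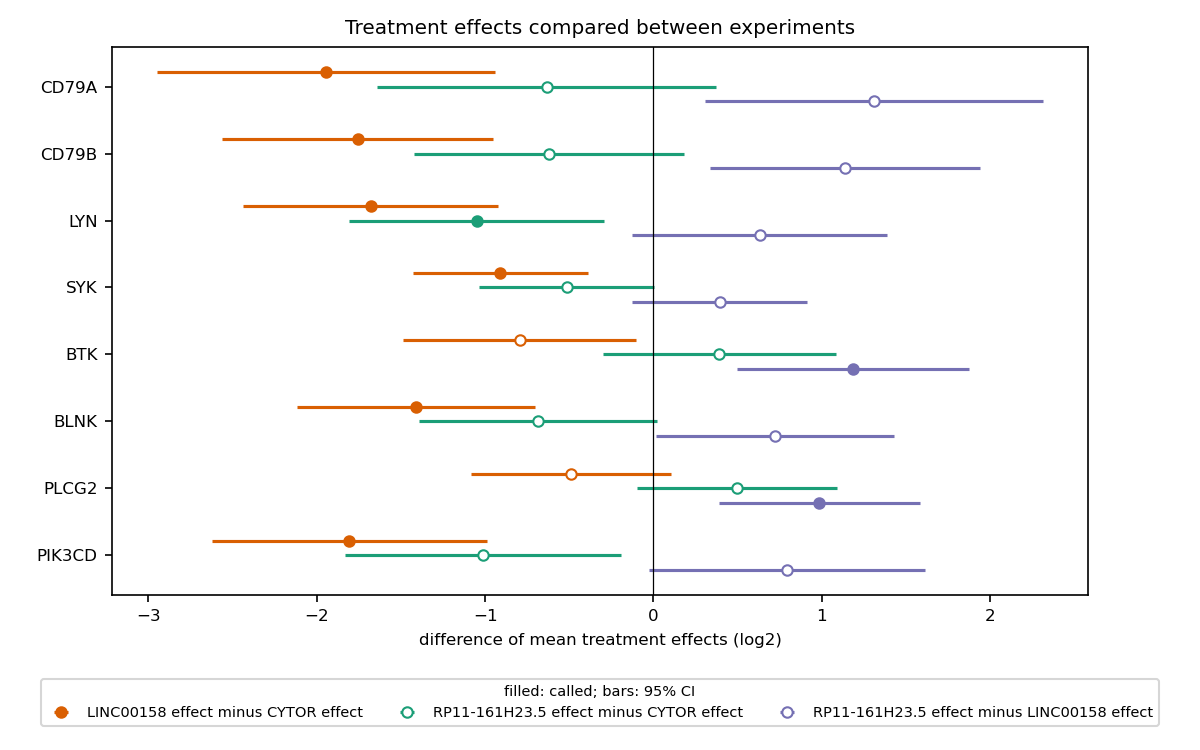
Difference between experiments in the mean effect of the 3 treatments for each gene (horizontal axis, log2, deposited values); filled symbols passed the test and bars are 95% confidence intervals. The 6 filled points of the LINC00158 minus CYTOR difference lie between -1.95 and -0.91, and the filled BTK and PLCG2 points of the RP11-161H23.5 minus LINC00158 difference at 1.19 and 0.99.

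Treatments within an experiment were set against each other inside 1 set of arrays. No gene was called in any of the 6 comparisons of gapmer 1 with gapmer 2 or of gapmers 1+2 with the mean of the single gapmers, and the share of all units called by limma was 0 in each. At an unadjusted p under 0.05 the genes counted 2 of 8 for CYTOR gapmer 1 against gapmer 2 (6.40% of all units), 6 of 8 for RP11-161H23.5 gapmers 1+2 against the single gapmers (8.37%), and 0 in the other 4 (4.22% to 6.57%). In the RP11-161H23.5 experiment PIK3CD was lower with both gapmers than with the single ones by a mean difference of -0.98 (95% interval -1.57 to -0.39, unadjusted p 0.0038, adjusted p 0.433). Gapmers 1+2 used 1 µM of each, so that the total amount of oligonucleotide differed from the single gapmers. It differed from the scrambled gapmer, at 1 µM, as well, so the same limit holds for every comparison of gapmers 1+2 with scrambled arrays. For CYTOR gapmer 1 against gapmer 2, PLCG2 differed by 0.89 (unadjusted p 0.00906, adjusted p 0.733) and CD79A by 0.79.

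Between the scrambled groups of the 3 experiments, also in 1 set, BLNK and PIK3CD were the genes called. BLNK had 8.41, 8.45 and 8.33 in RP11-161H23.5 scrambled arrays, against 9.85, 10.16 and 9.48 in CYTOR and 9.78, 9.64 and 9.65 in LINC00158 scrambled arrays. These groups did not overlap. BLNK, in the unit used, was lower in RP11-161H23.5 scrambled arrays by -1.43 against CYTOR (adjusted p 0.0154, 1 of 8 genes, where 1.53% of all units were called) and by -1.29 against LINC00158 (0.0138), while its other unit, given below, was higher. PIK3CD was lower by -1.67 against LINC00158 scrambled arrays (0.0154), making 2 of 8 genes, where 5.19% of all units were called. Both held after quantile normalization (0.0456 for BLNK and 0.0364 for PIK3CD against LINC00158). The BLNK call against CYTOR was lost without RP11-161H23.5 scrambled replicate 2 or 3 (up to 0.0718), and both calls against LINC00158 without replicate 1 or 2 of LINC00158 or 2 or 3 of RP11-161H23.5 scrambled arrays (up to 0.0646). Between CYTOR and LINC00158 scrambled arrays 0 of 8 genes were called by limma, as were 0 of all units. There 3 genes had an unadjusted p under 0.05, as had 9.73% of all units, and 7 of 8 means were lower in CYTOR (median -0.56). Between RP11-161H23.5 and LINC00158 scrambled arrays 7 of 8 genes had such a p by limma, as had 22.9% of all units. All 8 means were lower in those RP11-161H23.5 arrays, with a median difference of -0.84 (-0.39 after quantile normalization).

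BLNK is uncertain because its other single-symbol unit moved differently. In the arrays labelled CYTOR that unit averaged 7.50 ± 0.53 under gapmer 1, 7.78 ± 0.69 under gapmer 2 and 7.69 ± 0.18 under both, against 8.96 ± 0.29 in scrambled arrays (SD, n = 3 each). It fell, with changes of -1.46, -1.18 and -1.27 (adjusted p 0.022, 0.0458 and 0.0423), where the brighter unit had changes above 0. In the LINC00158 experiment it changed by 0.64, 1.43 and 1.19 (adjusted p 0.424, 0.0722 and 0.129), where the brighter unit had changes below 0. In RP11-161H23.5 scrambled arrays it averaged 10.04 ± 0.53, above CYTOR (8.96 ± 0.29) and LINC00158 (8.74 ± 0.50) scrambled arrays, without overlap. The brighter unit is so named by its mean over all arrays. In every LINC00158 gapmer group and every RP11-161H23.5 group the other unit had the higher mean, as under LINC00158 gapmer 2 (10.17 against 8.90). Which unit stands for BLNK there was not tested. Over the 36 arrays the highest value of the brighter unit (11.35, CYTOR gapmer 1 replicate 1) came with the lowest of the other unit (6.89), and the highest of the other unit (10.70, RP11-161H23.5 gapmer 1 replicate 3) with the lowest of the brighter (8.23). None of the other unit's calls held after quantile normalization (0.0807, 0.213 and 0.124). The second unit of SYK was below the filter, with group means of 2.86 to 3.67 against 3.94 for the median unit.

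**Figure D5:**
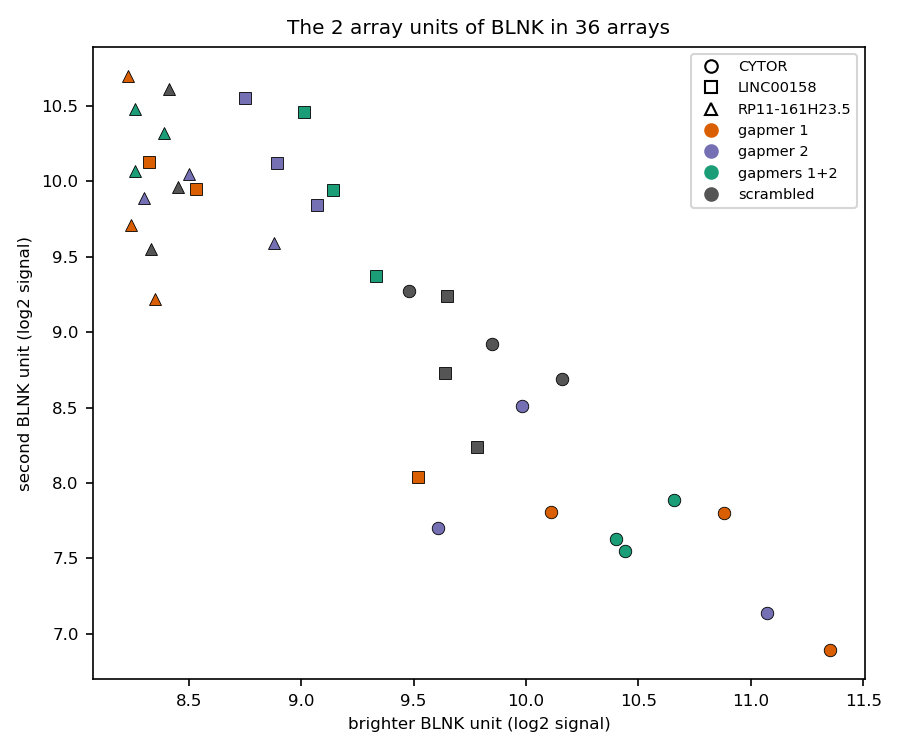
Log2 signal of the other BLNK unit (vertical axis) against the brighter BLNK unit (horizontal axis) in the 36 arrays; shapes are experiments and colours are treatments. CYTOR gapmer arrays lie to the lower right and RP11-161H23.5 arrays to the upper left.

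Over the 12 groups PIK3CD had the widest range of group means, 3.41 log2 units, from 9.50 ± 0.30 in LINC00158 scrambled arrays to 6.09 ± 0.68 in RP11-161H23.5 gapmers 1+2 (SD, n = 3 each). In order of level, LINC00158 scrambled came first, followed by CYTOR gapmer 1 (8.81 ± 0.57), CYTOR scrambled (8.65 ± 0.27), CYTOR gapmers 1+2 (8.50 ± 0.21) and CYTOR gapmer 2 (8.41 ± 0.26). Adjacent groups among these 4 of the CYTOR experiment differed by less than their SDs. RP11-161H23.5 scrambled (7.83 ± 0.43) and LINC00158 gapmer 1 (7.83 ± 0.85) followed at the same level. After them came LINC00158 gapmers 1+2 (7.56 ± 0.50) and gapmer 2 (7.47 ± 0.20), then RP11-161H23.5 gapmer 1 (7.17 ± 0.03) and gapmer 2 (6.97 ± 0.23). The ranges of group means of the other genes were 2.51 for BLNK, 2.38 for LYN, 2.11 for CD79A, 1.88 for CD79B, 1.33 for PLCG2, 1.04 for SYK and 0.89 for BTK.

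The genes did not share 1 profile to the same degree. Over the 12 group means, Pearson's r with the mean of the 8 standardised profiles was 0.946 for CD79B, 0.941 for CD79A, 0.854 for LYN and 0.851 for PIK3CD, and 0.683 for BLNK, 0.652 for SYK, 0.392 for BTK and 0.272 for PLCG2. Each gene is part of that mean, and the groups share array sets and brightness, so these are descriptions. Among 21267 genes ranked, those outside the pathway most like the mean profile were SHISA5 (0.974), LSM10 (0.974), FAM27B (0.973), MTARC1 (0.973) and ASB1 (0.969).

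The wider pathway was read from 8 lists of 94 genes (surface immunoglobulin chains, the coreceptor complex, other kinases, inhibitory receptors and phosphatases, adaptors and PI3K, calcium and NF-kB, RAS-ERK, and early outputs), of which 75 had a unit. In the LINC00158 experiment 71 were tested, with 7, 24 and 16 called lower under gapmer 1, gapmer 2 and both, and 0 called higher. The median change was -0.66, -0.91 and -0.73, against -0.29, -0.33 and -0.31 over 21079 named genes, of which 1842, 3675 and 2799 were called lower. After quantile normalization 5, 12 and 9 pathway genes were lower, as were 1020, 2105 and 1618 of 21068 named genes.

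IFITM1, a small membrane protein of the coreceptor complex, fell with changes of -2.53, -2.93 and -2.70 (adjusted p 0.0117, 0.00501 and 0.00736), and MAP2K2, the ERK kinase MEK2, with changes of -2.68, -3.14 and -3.08 (0.014, 0.0059 and 0.00686). The adaptor GRB2 fell with changes of -1.39, -1.78 and -1.92 (0.0244, 0.00759 and 0.00641) and INPP5D, the SHIP1 phosphatase that opposes phosphoinositide 3-kinase, with changes of -1.34, -1.66 and -1.50. IGHD, the heavy chain of IgD, CHUK, a kinase of the NF-kB pathway, and DUSP2, a phosphatase induced by ERK signalling, also fell under all 3 treatments. Under gapmer 2 and under both, the inhibitory receptor FCGR2B fell (-1.64 and -1.66), as did the p110γ subunit PIK3CG (-1.67 and -1.37) and the SRC-family kinase BLK (-1.68 and -1.42). CBL (-1.01 and -0.97), CD2AP (-1.15 and -1.28) and PRKCB (-1.49 and -1.52) fell under the same treatments. IFITM1, MAP2K2, IGHD, CHUK and DUSP2 were called under all 3 treatments after quantile normalization as well, whereas BLK, CBL, CD2AP and PRKCB were called under none. Among the lists, 5 of 13 inhibitory receptors and phosphatases, 5 of 15 adaptors and PI3K genes, and 3 of 16 genes of the calcium and NF-kB arm were lower under gapmer 2. Of all named genes, 3675 of 21079 were. After quantile normalization these list counts were 2, 2 and 1, where 2105 of 21068 named genes were lower.

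In the RP11-161H23.5 experiment 69 pathway genes were tested. Under gapmer 1, 1 was called higher and 3 lower, under gapmer 2 these were 2 and 4, and under gapmers 1+2 they were 3 and 16. Over 21138 named genes the counts were 1064 and 1347, 1034 and 1296, and 1187 and 2251. PAG1, an adaptor that brings the inhibitory kinase CSK to the membrane, rose by 1.53, 1.80 and 1.32 (adjusted p 0.00302, 0.0014 and 0.00488), also after quantile normalization. PIK3CG fell with changes of -0.86, -0.95 and -1.35 (0.0292, 0.0211 and 0.00342) on both scales. IFITM1 fell with changes of -1.14, -1.14 and -2.13, and after quantile normalization was called under both gapmers only. The same held for CR2, also of the coreceptor complex, with changes of -0.65, -0.65 and -0.88 (adjusted p 0.0311, 0.0329 and 0.00723). Of 7 early outputs tested, 4 were lower and 1 higher under both gapmers: CD69, an activation marker, changed by -0.82, -1.35 and -1.38, called under gapmer 2 and both, while CD83, another surface marker of activation, rose by 0.93 and 0.80 under those treatments.

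In the arrays labelled CYTOR 69 pathway genes were tested, with 3, 0 and 0 called higher and 1, 6 and 3 lower. Over 21385 named genes 487, 375 and 303 were higher and 1831, 2359 and 1653 lower. After quantile normalization the pathway counts were 7, 5 and 0 higher and 1, 1 and 1 lower, against 851, 828 and 433 higher and 437, 568 and 342 lower of 21304 named genes. IGLC3, a lambda light chain constant segment, fell with changes of -1.34, -1.28 and -1.28 (adjusted p 0.00122, 0.0015 and 0.00222) on both scales. JUNB, an early response transcription factor, fell under gapmer 2 and both (-0.76 each), a call lost after quantile normalization. IFITM1, which fell in the other 2 experiments, was called higher under gapmer 1 (1.28, adjusted p 0.0201). MAP2K2 changed by 1.61, 1.09 and 1.32 and was not called. After quantile normalization it was called higher under gapmer 1 (1.67, adjusted p 0.0446), with adjusted p of 0.0937 and 0.0898 under gapmer 2 and both.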

How the data were processed

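Total RNA of MEC-1 cells was hybridised to Affymetrix arrays after amplification from the poly-A tail and along the whole transcript, per the labels' protocols. The deposited values are log2 signals per transcript cluster, and the submitters' processing notes name RMA and Affymetrix Expression Console as what the authors used. Their versions were not given in those sources, and the highest value in the table is 19.93. No background level or read depth comes with these values, so precision rests on the 3 arrays per group.

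limma 3.58.1 in R 4.3.3 was fitted to the deposited values, per experiment (12 arrays, 4 group means, 8 residual degrees of freedom), over all units whose mean reached the median of all units. P-values are two-sided and Benjamini-Hochberg adjusted over all units tested, and a unit was called at adjusted p under 0.05. With 3 arrays against 3, an exact permutation test cannot go below 0.1 and was not used. Differences between experiments were tested as interactions over 36 arrays. The fits were also tested on simulated data. Symbols came from the platform annotation (36176 units with 1 symbol, 1119 with several, 98455 with none).

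The genes and lists were chosen with earlier results of these data known. All 9 members were to be named, the target of each experiment, up to 3 called genes per pathway list and experiment with the largest mean change (called in at least 2 treatments, or else the gene with the largest change), and the 5 genes most like the members' mean profile. Of genes called in fewer than 2 treatments, BLK, CD72, PIK3CB and ITPR2 (CYTOR) and IGLC3, BLK, ITPR1 and RASGRP3 (RP11-161H23.5) are not shown. The alternatives tried were quantile normalization, no filter, all 36 arrays in 1 fit, all 9 scrambled arrays as control, the replicate number as a block, the mean of a gene's units, and each array left out. CD22 and RP11-161H23.5 were left out because neither had a unit of its own symbol in the annotation used.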

Additional observations from a re-analysis of the deposited data

Results flagged for a closer look

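Several mean treatment effects differed between experiments by the interaction test itself (adjusted p under 0.05 by limma). Lower in the LINC00158 than in the CYTOR experiment were CD79A (difference in mean log2 change -1.95), CD79B (-1.76), LYN (-1.68), SYK (-0.91), BLNK (-1.41) and PIK3CD (-1.81). LYN was lower in the RP11-161H23.5 than in the CYTOR experiment (-1.05). BTK (1.19) and PLCG2 (0.99) had higher mean effects in the RP11-161H23.5 than in the LINC00158 experiment. The treated arrays of each experiment form a set of their own by shared values, so a difference between sets and a difference between targets cannot be told apart in any of the 9. Each difference also includes that between the scrambled groups of its experiments, which for SYK had means of 6.58 (LINC00158) and 5.70 (CYTOR). The BLNK difference belongs to its brighter unit, and the other unit differed in the opposite direction (2.39, adjusted p 0.000992).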

How the results depend on the processing

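Counts of the 8 genes called changed with some alternatives. With all 36 arrays in 1 fit they were 1 for CYTOR gapmer 1 (0 on the deposited values per experiment), where 18.7% of all units were called. For LINC00158 gapmer 1 and gapmer 2 they were 6 each (2 and 5), where 19.6% and 25.4% were. For RP11-161H23.5 gapmer 1, gapmer 2 and both they were 0, 1 and 2 (2, 2 and 3), where 13.6%, 12.6% and 16.1% were. With all 9 scrambled arrays as control they were 1, 2 and 1 for CYTOR gapmer 1, gapmer 2 and both (0 each), where 30.3%, 30.6% and 27.1% of all units were called. For the LINC00158 treatments they were 3, 4 and 4 (2, 5 and 5), where 20.4%, 25.4% and 22.8% were. For the RP11-161H23.5 treatments they were 4, 3 and 5 (2, 2 and 3), where 34.1%, 30.0% and 37.4% were. With that control BLNK under RP11-161H23.5 gapmer 2 was called lower (-0.75, adjusted p 0.0217), where its change against its own scrambled group was 0.16. With that control and with all 36 arrays in 1 fit, 0 genes were called higher under RP11-161H23.5 gapmer 1 or gapmer 2. Both BTK calls were thus lost in each of these settings. After quantile normalization the counts were 2 and 3 for LINC00158 gapmer 2 and both (5 each), and 7, 3 and 1 for the differences of LINC00158 from CYTOR, RP11-161H23.5 from CYTOR and RP11-161H23.5 from LINC00158 (6, 1 and 2). Without the filter they were 4 and 3 for LINC00158 gapmer 2 and both (5 each) and 0 for RP11-161H23.5 against CYTOR, where 5.98%, 5.43% and 2.79% of all units were called lower. In 110 of 2248 gene results the sign changed with no call in either setting.

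Leaving out 1 array in turn gave 0 to 7, 1 to 4 and 1 to 3 calls for LINC00158 gapmer 1, gapmer 2 and both, and 0 to 1, 1 to 2 and 2 to 4 for RP11-161H23.5. Of all units, 1115 to 11700, 2712 to 4128 and 1800 to 3721 were then called lower in the LINC00158 treatments. In the RP11-161H23.5 treatments 2597 to 3098, 2532 to 3001 and 3722 to 5879 were lower. There, 2386 to 2693, 1862 to 2209 and 2873 to 4689 units were higher. The same fits gave 0 to 1 and 0 to 2 calls for RP11-161H23.5 scrambled against CYTOR and LINC00158 scrambled arrays, where 107 to 762 and 353 to 1674 units were lower. For the differences between experiments, in the order above, they gave 5 to 7, 0 to 2 and 0 to 4. There, 4376 to 7828 and 2331 to 3248 units were lower for the first 2 and 1777 to 6255 higher for the last. Each of these fits tested 67875 to 67927 units. Of 19 calls of a treatment against its scrambled group, 5 held under every such fit. CYTOR counts and those between treatments stayed at 0. Fitting LINC00158 gapmer 2 and gapmers 1+2 without gapmer 1 replicate 1, which was chosen after seeing the data, gave 6 calls each (5 each with it).

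Between treated and scrambled groups, same-numbered arrays did not deviate together from their group means (correlations from -0.14 to 0.13). Same-numbered treated arrays were not compared with each other, so whether the numbers pair the arrays is not settled. With the replicate block 3, 4 and 4 genes were called in the LINC00158 treatments, where 3671, 6608 and 5582 of 67877 units were lower and 2527, 4156 and 3706 higher. In the RP11-161H23.5 treatments 2, 2 and 3 were called, where 4214, 4125 and 5805 of 67896 units were lower and 3591, 2999 and 4220 higher. In the CYTOR treatments 0 were called, where 6310, 7097 and 4614 of 67888 units were lower and 883, 953 and 731 higher. The number of arrays and the shift of bright units between sets limit all counts.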
